A study of Homo sapiens with 12 samples.

Results

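The comparison was made on Day 16 of cardiac differentiation of H1 cells, an established human embryonic stem cell line, and set P-DF cells against cells kept in static culture. P-DF cells were lifted with EDTA on Day 2, replated, and differentiated in DF medium without a WNT inhibitor. NP-IWP2 cells stayed in their wells and received IWP2, which blocks the secretion of WNT ligands by inhibiting Porcupine, from Day 2 to Day 4. All cells of the series were wild type and had first received the WNT activator CHIR99021, and the cells that were replated received the ROCK inhibitor Y27632 at that step. P-DF and NP-IWP2 therefore differed in replating, in the Y27632 that went with it and in IWP2, and the effects of these cannot be told apart in this comparison. Members were chosen by their labels: 2 P-DF libraries (replicates 3 and 4) and 2 NP-IWP2 libraries (replicates 1 and 2), which are 4 of the 12 libraries of the series. The other group on Day 16, P-IWP2 (replicates 5 and 6), was replated and also received IWP2. Nothing states that libraries of a group came from separate cultures, so p-values measure only the spread between these libraries, which may be technical.

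Cardiomyocytes contract through sarcomeres, in which myosin motors pull on actin filaments under the control of calcium and the troponin complex. As human heart muscle matures, ventricular isoforms of sarcomere proteins gain on atrial and fetal ones, calcium is cycled through the sarcoplasmic reticulum by a pump, a release channel and their regulators, and energy comes increasingly from mitochondrial oxidation. Mesendoderm, from which these cells arise, can also give liver-like endoderm, epicardium, fibroblasts and endothelium, each with its own marker genes.

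The 4 libraries held between 16073679 and 19079533 counts on genes. Between 26049 and 28786 genes had a count, fewer in the P-DF than in the NP-IWP2 libraries. Replicates correlated at r = 0.988 (NP-IWP2) and 0.990 (P-DF) across genes, and libraries of the 2 groups at 0.906 to 0.911. Mitochondrially encoded genes took 10.4% and 9.64% of the counts in NP-IWP2 and 14% and 15.8% in P-DF. The labelled cell type was checked by its markers. The summed FPKM (fragments per length of the gene and per size of the library) of 7 cardiomyocyte markers was 5452 and 2816 in NP-IWP2 and 8631 and 6910 in P-DF, so both groups expressed them. ACTC1 and MYH7 made up most of each sum. The protocol names a library kit for long reads and the processing tools for short ones, so the read type is not settled, which bears on what FPKM and ratios of FPKM between genes measure. The defining blood markers PTPRC, HBZ and HBE1, the pluripotency factors POU5F1 and NANOG, and the skeletal muscle factors MYOD1 and MYF5 had at most 3 counts in each of the 4 libraries. TNNT2, the cardiac troponin T commonly used to identify cardiomyocytes, was at 74.8 and 87.8 FPKM in NP-IWP2 and at 106 and 78.7 in P-DF. Its groups overlapped, and the difference was not called (log2 fold change 0.40 ± 0.17 (SE), adjusted p = 0.0934).

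P-DF cells had higher levels of most ventricular sarcomere and mitochondrial respiratory genes on Day 16, and much lower levels of genes of liver-like, epicardial, stromal and endothelial cells. Of 17926 genes tested, 5759 (32.1%) were called at an adjusted p under 0.05 in edgeR's quasi-likelihood test. P-DF was higher for 2420 genes (13.5%) and lower for 3339 (18.6%). In bulk RNA, fewer cells of a type and less RNA per cell cannot be told apart. More of the large differences were falls: 943 called genes were lower by more than 3 on the log2 scale and 46 were higher by more than 3. The percentages here are the background against which each gene list below is read. Only members that passed a filter on low counts were tested, and the libraries of a single group were enough to pass it. A gene counted in NP-IWP2 alone could thus enter a list only as a fall, and a gene counted in P-DF alone only as a rise. When libraries were scaled to total counts instead of by TMM, which assumes that most genes do not change, 1382 genes were called higher and 4830 lower. The median log2 fold change of all genes then moved from -0.01 to -0.23, and every list median below moves down with it. Fewer genes were called without NP-IWP2 replicate 2 (3597), P-DF replicate 3 (3528) or P-DF replicate 4 (3061), and with all 12 libraries of the series in the model (2975).

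**Figure D1:**
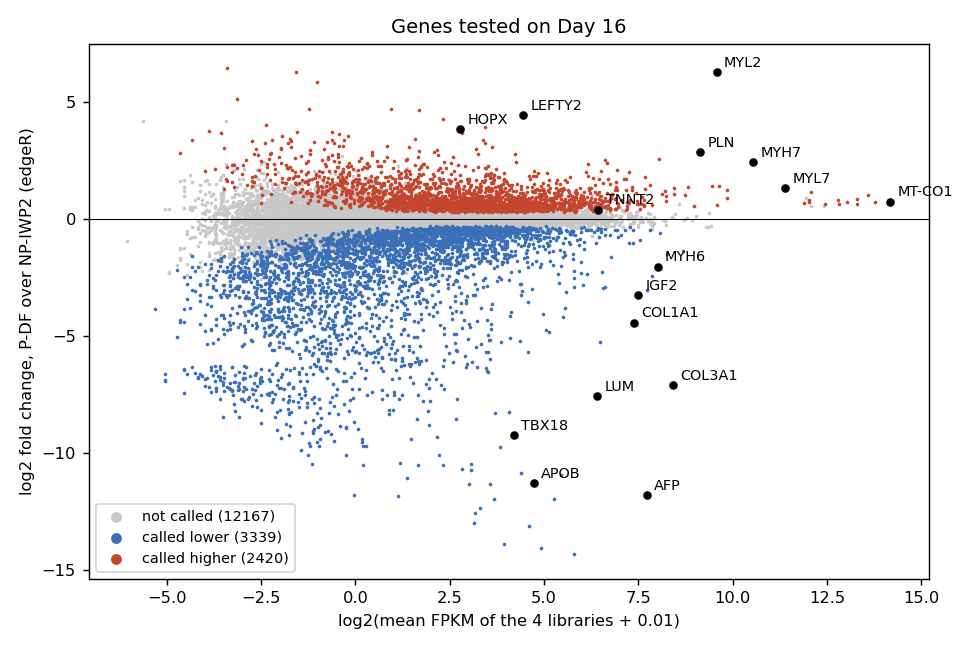
Each point is a gene tested on Day 16, with the log2 of its mean FPKM over the 4 libraries on the x axis and its log2 fold change, P-DF over NP-IWP2, on the y axis. Red points (2420) were called higher and blue points (3339) lower; the falls of AFP, APOB and TBX18 reach far below the rises of MYL2, LEFTY2 and HOPX.

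Ventricular and adult sarcomere genes rose in P-DF for 29 of 36 members and fell for 1 (median log2 fold change 1.38, against -0.01 over all genes tested). MYL2, which encodes the ventricular regulatory light chain of myosin and lies on chromosome 12 (GRCh38, 110910819 to 110921443), had the largest rise of the named genes. It was at 38.7 and 4.52 FPKM in NP-IWP2 and at 1662 and 1360 FPKM in P-DF. The groups were far apart, although the NP-IWP2 libraries also differed from each other, and the log2 fold change was 6.29 ± 0.80 (SE, adjusted p = 0.00023). Leaving out NP-IWP2 replicate 1 or 2 moved this value to 8.67 or 5.43. MYH7, the slow ventricular myosin heavy chain, was at 695 and 351 FPKM in NP-IWP2 and at 2613 and 2340 in P-DF (log2 fold change 2.44 ± 0.34, adjusted p = 0.000394, or 0.116 with all 12 libraries in the model). TNNI3, the adult cardiac troponin I, was at 9.15 and 4.31 FPKM in NP-IWP2 and at 32.4 and 31.2 in P-DF, a rise of 2.42 on the log2 scale. LMOD3, a leiomodin that nucleates thin filaments, was at 0.79 and 0.29 FPKM and rose to 9.84 and 9.05. Smaller rises were called for TTN, the titin spring of the sarcomere (31.1 and 34.4 to 69.9 and 63.5 FPKM), for MYBPC3, the myosin binding protein C (234 and 203 to 514 and 442), and for TNNC1, cardiac troponin C (518 and 326 to 1086 and 875). The one member that fell was MYOM2, an M-band protein, at 1.75 and 1.41 FPKM in NP-IWP2 and 0.48 and 0.40 in P-DF. ACTC1, the cardiac actin, was not called (4104 and 1807 FPKM against 5578 and 4201). Between 23 and 31 members were called higher when 1 library was left out, and 10 with all 12 libraries.

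Among 12 atrial and fetal sarcomere isoforms, 7 rose and 1 fell. MYH6, the fast myosin heavy chain of the atrium, lies beside MYH7 on chromosome 14 and went the other way from it: 436 and 417 FPKM in NP-IWP2 and 109 and 71.0 in P-DF (log2 fold change -2.04 ± 0.28, adjusted p = 0.000368). The FPKM of MYH7 divided by that of MYH6 was 1.59 and 0.841 in the NP-IWP2 libraries and 24.0 and 33.0 in the P-DF libraries. The 2 genes are near-identical over long stretches, and reads that the counting could split between them make each level uncertain. MYL7, the atrial regulatory light chain, did not fall with MYH6: it was at 1836 and 1573 FPKM in NP-IWP2 and at 3740 and 3646 in P-DF (log2 fold change 1.32 ± 0.20). Since MYL2 rose more, the ratio of MYL2 to MYL7 was 0.0211 and 0.00287 in NP-IWP2 and 0.444 and 0.373 in P-DF, so that the atrial light chain still had the higher level per length in P-DF. TNNI1, the fetal troponin I, also remained above TNNI3, with a ratio of TNNI3 to TNNI1 of 0.161 and 0.157 in P-DF against 0.0580 and 0.0299. MYL4, the atrial essential light chain, was also called higher. So was MYL9, a list member that encodes a light chain of smooth muscle and non-muscle myosin. In this list, 4 and 3 members were called higher without NP-IWP2 replicate 2 and without P-DF replicate 3, and with all 12 libraries 3.

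**Figure D2:**
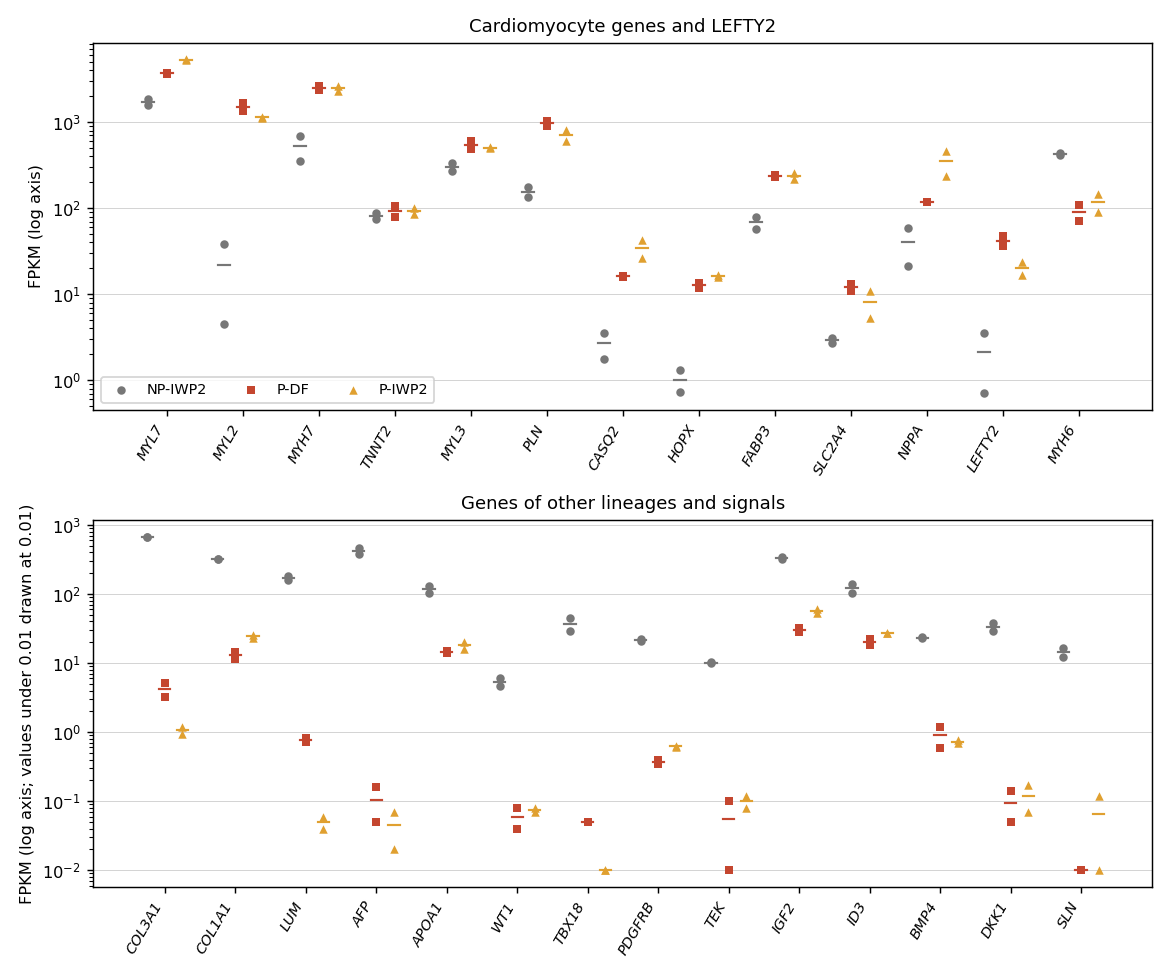
Points give the FPKM of each Day 16 library on a log axis, with a short bar at the mean of the 2 libraries of a group; NP-IWP2 is grey, P-DF red and P-IWP2 yellow. In the upper panel MYL2, PLN, HOPX and LEFTY2 lie higher in P-DF and MYH6 lower, while TNNT2 overlaps; in the lower panel all 14 genes of other lineages and signals lie lower in P-DF than in NP-IWP2.

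Promoters are shown here because they are a feature that the comparison did not use. Of the members of the ventricular and adult sarcomere list, 26 had a listed promoter, and 6 of these carried a MEF2 box, the binding site of the muscle factors of that name, in the 250 bases before their RefSeq start. All 6 were called higher, as were 29 of the 36 tested members of the whole list (80.6%). Of the 6 with a box, the 3 with the highest mean FPKM over the 4 libraries are printed below. They are given 5′ to 3′ on the strand of the gene, with the MEF2 match in capitals.
HSPB7 (GRCh38.p14, chr1:16018044-16018293, minus strand): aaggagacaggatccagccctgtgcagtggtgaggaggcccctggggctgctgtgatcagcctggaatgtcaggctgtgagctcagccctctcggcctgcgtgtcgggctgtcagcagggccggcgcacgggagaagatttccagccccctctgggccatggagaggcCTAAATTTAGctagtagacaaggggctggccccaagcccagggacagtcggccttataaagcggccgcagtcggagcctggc
MYBPC3 (GRCh38.p14, chr11:47352703-47352952, minus strand): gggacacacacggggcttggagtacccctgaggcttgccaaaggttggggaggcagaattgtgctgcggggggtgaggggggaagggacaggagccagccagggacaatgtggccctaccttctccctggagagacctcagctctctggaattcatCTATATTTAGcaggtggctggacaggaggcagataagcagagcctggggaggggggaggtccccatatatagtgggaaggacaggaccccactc
MYOZ2 (GRCh38.p14, chr4:119135582-119135831, plus strand): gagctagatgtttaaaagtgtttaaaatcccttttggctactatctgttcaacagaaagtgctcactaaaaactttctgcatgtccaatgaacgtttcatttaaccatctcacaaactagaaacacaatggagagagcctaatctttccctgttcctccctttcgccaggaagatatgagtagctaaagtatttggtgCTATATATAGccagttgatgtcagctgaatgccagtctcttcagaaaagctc

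The match ended 73 bases before the start in HSPB7, 85 in MYBPC3 and 43 in MYOZ2. HSPB7, a small heat shock protein of cardiac muscle, was at 584 and 382 FPKM in NP-IWP2 and at 1165 and 1070 in P-DF. MYOZ2, which anchors calcineurin at the Z-disc, was at 124 and 80.2 FPKM in NP-IWP2 and at 295 and 321 in P-DF. The other 3 members with a MEF2 box were TTN, SYNPO2L and SMPX. A MEF2 box (both strands searched) was present in 0.424% of the 12276 tested genes with a listed promoter, in 1.37% of those called higher and in 0.203% of those called lower. The letters AGATAA, which the GATA factors bind, were present in either orientation in 38.5% of the sarcomere members with a promoter and in 5.25% of all, with 5.92% of the genes called higher and 6.48% of those called lower. A CArG box, the site of serum response factor, was present in 11.5% of these members and in 1.11% of all, with 1.48% of the genes called higher and 1.54% of those called lower. These matches describe the letters in this window and were not tested as binding sites. The shares within the sarcomere list are a property of the genes chosen for it, not a result of the comparison. Among the MEF2 genes themselves, MEF2A was called higher (log2 fold change 0.50), and MEF2C and MEF2D were not called.

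Calcium handling genes moved in both directions: 16 of 28 members rose and 9 fell (median log2 fold change 0.66). PLN, phospholamban, the inhibitor of the calcium pump, was at 177 and 135 FPKM in NP-IWP2 and at 905 and 1038 in P-DF (log2 fold change 2.84 ± 0.23, adjusted p = 1.02e-05). The pump itself, ATP2A2, rose less, from 71.8 and 74.0 to 98.8 and 101 FPKM, and the ratio of ATP2A2 to PLN was 0.406 and 0.549 in NP-IWP2 and 0.109 and 0.0971 in P-DF. SLN, sarcolipin, an atrial inhibitor of the same pump, was at 16.4 and 12.1 FPKM in NP-IWP2 and had no count in either P-DF library, which is at least 69.2-fold lower against a floor of 3 counts in a library. CASQ2, the calcium buffer of the sarcoplasmic reticulum, rose from 3.59 and 1.78 to 15.8 and 16.5 FPKM. The release channel RYR2 and the L-type channel subunit CACNA1C rose by 0.86 and 1.28 on the log2 scale. The members that fell included the T-type channel CACNA1G (3.75 and 6.12 to 0.67 and 0.57 FPKM) and the inositol trisphosphate receptors ITPR1, ITPR2 and ITPR3, which release calcium in many cell types. With all 12 libraries 8 members were called higher and 5 lower.

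Of 30 ion channels and connexins, 14 rose and 6 fell. KCNK3, a background potassium channel, was at 0.70 and 0.37 FPKM in NP-IWP2 and at 2.91 and 3.08 in P-DF (log2 fold change 2.66 ± 0.30, adjusted p = 0.000101). The P-DF libraries lay well above both NP-IWP2 libraries. KCNH2, the hERG channel of repolarization, rose by 0.88 on the log2 scale. GJA1, the gap junction protein connexin 43, fell from 64.6 and 62.3 to 21.7 and 22.4 FPKM, KCNJ3, an atrial potassium channel, from 1.25 and 1.60 to 0.16 and 0.17, and the pacemaker channel HCN4 from 43.1 and 46.0 to 26.3 and 23.6. With all 12 libraries 10 members were called higher and 1 lower.

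Cardiac transcription factors were divided, with 11 of 34 higher, 8 lower and 15 not called. HOPX, a homeodomain protein without DNA binding that is expressed in cardiomyocytes, was at 1.30 and 0.73 FPKM in NP-IWP2 and at 11.9 and 13.6 in P-DF (log2 fold change 3.83 ± 0.24, adjusted p = 2.1e-06). NKX2-5, a core cardiac factor, rose by 0.59 on the log2 scale, from 88.7 and 92.6 to 117 and 119 FPKM. IRX4, a ventricular factor, was called higher by 0.66. GATA4 (84.7 and 93.4 against 68.7 and 69.3 FPKM), GATA6, TBX5, TBX20, HAND1 and MEF2C were not called. The falls included TBX18, which is expressed in epicardium and the sinus node, from 28.7 and 44.8 to 0.05 and 0.05 FPKM, and the sinus node factor SHOX2, from 2.34 and 4.06 FPKM to 0.02 and 0. ISL1, a progenitor factor, fell by 1.27 on the log2 scale. NR2F1, an atrial factor, was at 0.86 and 0.97 FPKM in NP-IWP2 and had no count in P-DF (at least 21.5-fold lower against 3 counts). Under total count scaling 7 of these factors were called higher and 12 lower, and the list median was -0.10 in place of 0.12. Leaving out NP-IWP2 replicate 2, P-DF replicate 3 or P-DF replicate 4 left 7 called higher in each case, and with all 12 libraries 4 were called higher and 2 lower.

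Among natriuretic peptides and factors secreted by the heart, 4 of 22 members rose and 10 fell. NPPA, the atrial natriuretic peptide, was at 59.0 and 21.1 FPKM in NP-IWP2 and at 118 and 118 in P-DF (log2 fold change 1.74 ± 0.45, adjusted p = 0.0133 by edgeR and 0.0603 by DESeq2). Its log2 fold change was 2.78 without NP-IWP2 replicate 1 and 1.14 without NP-IWP2 replicate 2, and its adjusted p was 0.134 with all 12 libraries. NPPB was at 136 and 20.9 FPKM in NP-IWP2 and at 94.9 and 87.7 in P-DF, so its groups overlapped and it was not called (adjusted p = 0.774, or 0.0263 without a filter on low counts). Endothelin 1 (EDN1) fell from 17.4 and 16.0 to 1.74 and 1.88 FPKM and the natriuretic peptide receptor NPR1 from 5.56 and 5.14 to 0.09 and 0. The count of rises in this list went from 4 to 2, 1 and 2 without NP-IWP2 replicate 2, P-DF replicate 3 and P-DF replicate 4, and with all 12 libraries no member was called higher and 6 lower.

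**Figure D3:**
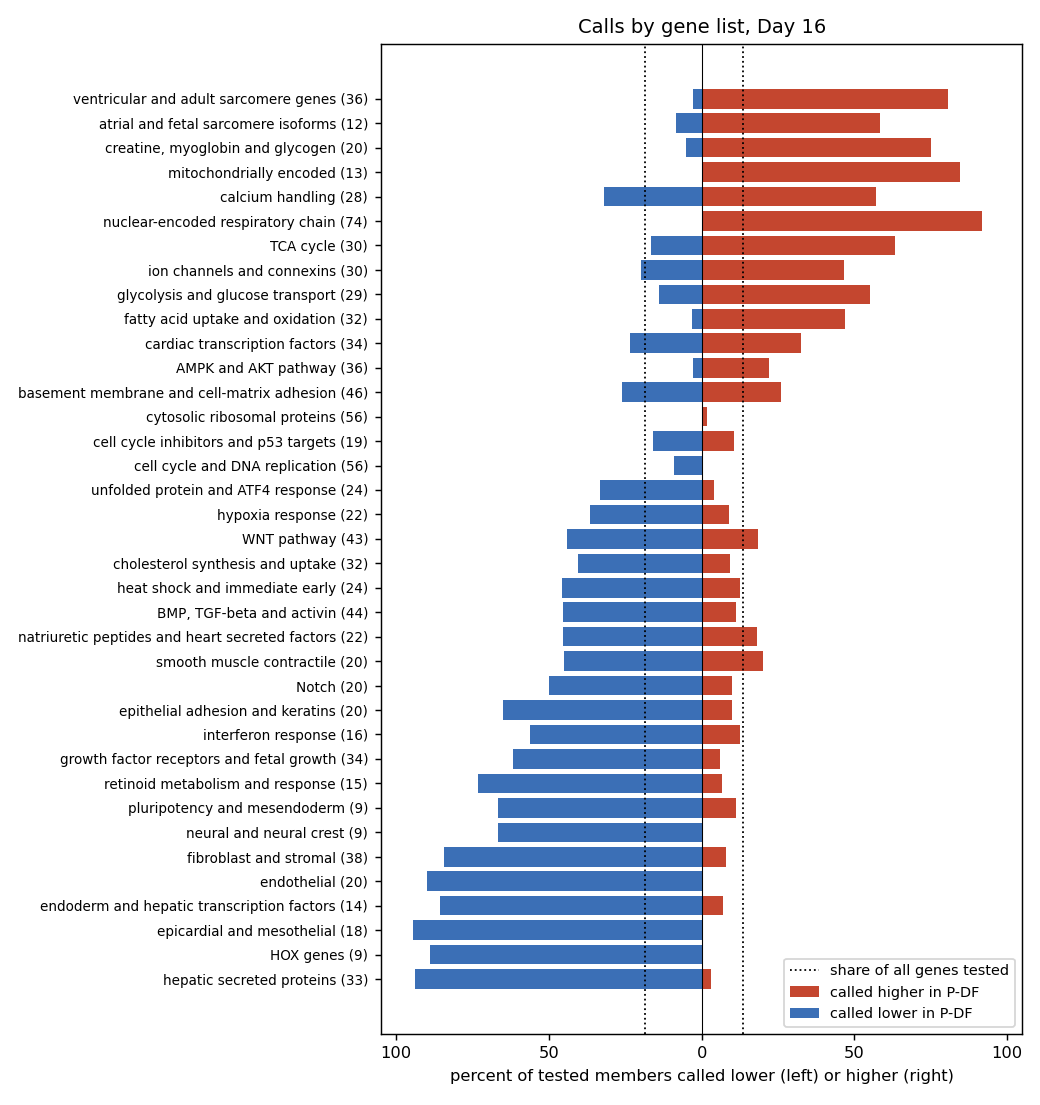
Bars give the percent of tested members (number in brackets) of each gene list called higher in P-DF (red, right) or lower (blue, left), ordered by the median log2 fold change, for lists with at least 9 members tested. Dotted lines mark the background over all genes tested, 13.5% higher and 18.6% lower; the ventricular and adult sarcomere genes (80.6% higher) and the hepatic secreted proteins (93.9% lower) are at the ends.

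Genes of oxidative metabolism rose by small amounts across nearly the whole pathway. Of 74 nuclear-encoded subunits of the respiratory chain, 68 were called higher by edgeR and 66 by DESeq2, and 0 were called lower, also at an unadjusted p under 0.05 (median log2 fold change 0.60). ATP5F1B, the catalytic subunit of ATP synthase, was at 473 and 416 FPKM in NP-IWP2 and at 566 and 567 in P-DF, COX8A of cytochrome oxidase at 160 and 151 against 211 and 212, and NDUFS5 of complex I at 204 and 197 against 260 and 265. The exception in size was COX6A2, the heart and muscle isoform of a cytochrome oxidase subunit, which rose from 6.43 and 4.34 to 16.2 and 19.4 FPKM. Of the 13 mitochondrially encoded genes, 11 were called higher (median 0.72); MT-CO1 was at 15849 and 14591 FPKM in NP-IWP2 and at 20526 and 23580 in P-DF (adjusted p = 0.0419). These small differences depended on the scaling and on the libraries in the test. With total counts 50 nuclear members were called higher, and the medians were 0.39 for the nuclear and 0.51 for the mitochondrial list. The FPKM given are scaled to library totals, whereas the log2 fold changes use TMM. Without NP-IWP2 replicate 2, P-DF replicate 3 and P-DF replicate 4, 32, 45 and 31 nuclear and 3, 4 and 0 mitochondrial members were called, and with all 12 libraries of the series in the model 14 and 0. No nuclear member was called lower by edgeR in any of those models.

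Of 30 genes of the TCA cycle and its entry points, 19 rose and 5 fell. Citrate synthase (CS) was at 54.8 and 50.8 FPKM in NP-IWP2 and at 68.2 and 78.3 in P-DF, and SDHA, the flavoprotein of complex II, at 7.77 and 7.45 against 13.6 and 12.3. The 5 that fell were PCK1 and PCK2 of gluconeogenesis, ACLY, which makes cytosolic acetyl-CoA, the cytosolic IDH1 and the pyruvate dehydrogenase kinase PDK4, so that none of them catalyzes a step of the cycle itself. The median log2 fold change of the list was 0.58, and ran from 0.42 to 0.74 with 1 library left out. With all 12 libraries 1 member was called higher and 4 lower, so falls outnumbered rises in that model. Of 32 genes of fatty acid uptake and oxidation, 15 rose and 1 fell; FABP3, the fatty acid carrier of heart muscle, went from 79.2 and 57.9 to 231 and 243 FPKM (log2 fold change 1.99 ± 0.19, adjusted p = 3.97e-05), and CD36, the fatty acid transporter, from 1.00 and 0.82 to 2.62 and 3.05. Without P-DF replicate 3 or 4, 9 of these members were called higher, with total counts 8, and with all 12 libraries 2.

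The main glucose transporters moved in opposite directions. SLC2A4, the insulin-regulated GLUT4, rose from 2.73 and 3.10 to 10.8 and 13.2 FPKM, and SLC2A1, the widely expressed GLUT1, fell from 24.7 and 19.9 to 4.90 and 4.59 (log2 fold changes 2.26 ± 0.27 and -2.03 ± 0.23). The ratio of SLC2A4 to SLC2A1 was 0.110 and 0.156 in NP-IWP2 and 2.20 and 2.88 in P-DF. Of the 29 glycolysis and glucose transport genes, 16 rose and 4 fell, with ENO3, the muscle enolase, at 50.3 and 45.8 FPKM in NP-IWP2 and 104 and 105 in P-DF. Without NP-IWP2 replicate 2, P-DF replicate 3 or P-DF replicate 4, 9, 10 and 9 were called higher, and with all 12 libraries 6. Of 20 genes of creatine, myoglobin and glycogen, 15 rose and 1 fell. CKMT2, the mitochondrial creatine kinase of muscle, went from 6.19 and 5.83 to 18.4 and 20.2 FPKM, and PPP1R3C, which targets a phosphatase to glycogen, from 64.5 and 60.5 to 148 and 159, and with all 12 libraries 7 members were called higher. PRKAA2, the AMPK catalytic subunit that is abundant in muscle, rose from 7.71 and 5.96 to 17.4 and 17.5 FPKM (log2 fold change 1.56 ± 0.16, adjusted p = 4.91e-05), while PRKAA1, the other catalytic subunit, was not called (-0.05). In the AMPK and AKT list 8 of 36 members rose and 1 fell, and AKT1 and MTOR were not called. Leaving out NP-IWP2 replicate 1 or 2 or P-DF replicate 3 or 4 gave 5, 4, 4 and 2 rises in that list, and with total counts its median was -0.11 in place of 0.11, with 3 rises and 6 falls.

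Few cell cycle genes were called. None of 56 cell cycle and DNA replication genes was called higher by edgeR in the model of 6 libraries (2 at an unadjusted p under 0.05) or by DESeq2, and 5 fell, among them MKI67, the proliferation antigen (6.87 and 7.23 to 3.92 and 4.15 FPKM, adjusted p = 0.0402), and RRM2, a subunit of ribonucleotide reductase. The share of falls, 8.93%, was under the background of 18.6%. Without NP-IWP2 replicates 1 and 2 and P-DF replicates 3 and 4 in turn, 2, 3, 2 and 1 members were called lower, and total count scaling gave 12. With the 4 libraries of the comparison alone in the edgeR model, 3 were called higher and 12 lower. Of 19 cell cycle inhibitors and p53 targets, 2 rose and 3 fell. CDKN1A, the p21 inhibitor, rose from 29.1 and 21.1 to 34.9 and 43.9 FPKM, and the inhibitors CDKN1C and CDKN2B fell by 0.82 and 5.03 on the log2 scale. Among cytosolic ribosomal proteins 1 of 56 members, RPLP1, was called; the median of the list was -0.02, and -0.24 with total counts, when 19 were called lower.

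The largest falls were in genes of liver-like cells. Of 33 hepatic secreted proteins, 31 fell and 1 rose, with a median log2 fold change of -7.00, or -5.02 when the 10 members without a count in P-DF were set at the bound that 3 counts give. AFP, alpha-fetoprotein of the fetal liver and yolk sac, lies on chromosome 4 (GRCh38, 73431138 to 73456174). It was at 465 and 381 FPKM in NP-IWP2 (28424 and 19581 counts) and at 0.16 and 0.05 in P-DF (8 and 3 counts), a log2 fold change of -11.80 ± 0.36 (adjusted p = 3.83e-08). APOB, the structural apolipoprotein of low-density particles, was at 56.0 and 50.04 FPKM in NP-IWP2 and 0.03 and 0.01 in P-DF. APOA4 and AHSG had no count in P-DF and were at least 869-fold and 722-fold lower, and TTR, the thyroid hormone carrier, had 3601 and 2376 counts in NP-IWP2 against 0 and 1. APOA1, the main apolipoprotein of high-density particles, fell less, from 130 and 103 to 13.8 and 14.8 FPKM. APOE was not called (139 and 132 against 129 and 155 FPKM). Of 20 endoderm and hepatic transcription factors listed, 14 passed the filter on low counts and 12 of these fell (9 with all 12 libraries). Their median log2 fold change was -3.78, or -3.15 with 3 members at their bound. It ran from -3.93 to -2.80 with 1 library left out. HNF4A, a master regulator of hepatocytes, was at 0.71 and 0.73 FPKM in NP-IWP2 and had no count in P-DF (at least 39.1-fold lower). The summed FPKM of the 6 hepatocyte markers was 784 and 641 in NP-IWP2 and 14.1 and 14.9 in P-DF, where nearly all of it was APOA1.

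Epicardial and mesothelial genes were lower as a group, with 17 of 18 members down by edgeR and by DESeq2 and 0 up, also at an unadjusted p under 0.05 (median log2 fold change -4.59, or -4.32 with the 1 member at 0 set at its bound). WT1, the epicardial zinc finger factor, was at 4.62 and 6.14 FPKM in NP-IWP2 and at 0.04 and 0.08 in P-DF (log2 fold change -6.30 ± 0.27, adjusted p = 1.89e-07). TCF21, a factor of epicardium and cardiac fibroblasts, was at 12.1 and 21.1 FPKM against 0.02 and 0, and BNC1, of mesothelium, fell from 20.7 and 24.0 to 0.70 and 0.54. The retinoic acid enzyme ALDH1A2, which marks epicardium, was at 0.46 and 0.80 FPKM in NP-IWP2 and 0.01 and 0.03 in P-DF. The summed FPKM of the 5 epicardial markers was 40.9 and 54.4 in NP-IWP2 and 0.79 and 0.65 in P-DF. SCX, the remaining member, was not called.

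Genes of fibroblasts and stroma fell for 32 of 38 members and rose for 3 (median log2 fold change -2.54). COL3A1, the chain of type III collagen, was at 679 and 670 FPKM in NP-IWP2 and at 5.23 and 3.28 in P-DF (log2 fold change -7.10 ± 0.29, adjusted p = 1.3e-07). COL1A1 of type I collagen fell from 324 and 322 to 14.6 and 11.3 FPKM, the proteoglycan lumican (LUM) from 183 and 157 to 0.72 and 0.81, and fibronectin (FN1) from 160 and 156 to 27.6 and 29.1. PDGFRB, a receptor of mural and stromal cells, fell from 21.1 and 22.1 to 0.34 and 0.39 FPKM. POSTN was not called. The 3 rises were PRRX1, a mesenchymal factor (2.42 and 1.37 to 7.07 and 8.13 FPKM), S100A4, and FBN2, a fibrillin of fetal tissue (149 and 142 to 264 and 221). The summed FPKM of the 5 fibroblast markers was 537 and 509 in NP-IWP2 and 19.2 and 16.4 in P-DF. Between 27 and 30 members were called lower when 1 library was left out.

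Basement membrane and cell-matrix adhesion genes did not share a direction: 12 of 46 rose, 12 fell and 22 were not called. Perlecan (HSPG2) rose from 19.3 and 17.0 to 38.2 and 33.0 FPKM, the laminin chain LAMA2 of muscle from 14.2 and 16.3 to 27.5 and 28.8, and the laminin receptor subunit ITGA7 by 1.69 on the log2 scale. ITGA8 fell from 8.31 and 9.25 to 0.07 and 0.06 FPKM, and the collagen receptor subunit ITGA1 by 3.25. Without NP-IWP2 replicate 2 or P-DF replicate 4, 5 members rose, and without P-DF replicate 3, 7 fell. With all 12 libraries 3 rose and 7 fell, and with total counts the median of this list was -0.13 in place of 0.08. Smooth muscle genes were also split, with 4 of 20 higher and 9 lower. ACTA2, smooth muscle actin, fell from 219 and 131 to 25.1 and 15.5 FPKM, and calponin (CNN1) was at 111 and 31.8 FPKM in NP-IWP2 and 237 and 172 in P-DF. CNN1 was called higher by edgeR (adjusted p = 0.0338) but not by DESeq2 (0.132) or with all 12 libraries (0.0719), and its log2 fold change of 1.69 became 2.97 without NP-IWP2 replicate 1 and 1.02 without NP-IWP2 replicate 2. Only 1, 1 and 2 of these members rose without NP-IWP2 replicate 2, P-DF replicate 3 and P-DF replicate 4. The summed FPKM of 3 smooth muscle markers was 330.3 and 163 in NP-IWP2 and 262 and 188 in P-DF.

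Of 32 endothelial genes listed, 20 passed the filter on low counts, which could be passed through the NP-IWP2 libraries alone. Among these 20, 18 fell by edgeR and by DESeq2 and 0 rose, also at an unadjusted p under 0.05 (median log2 fold change -3.46, or -2.83 with 3 members at their bound). The share of falls is therefore set in part by the filter. The angiopoietin receptor TEK was at 10.3 and 10.1 FPKM in NP-IWP2 and at 0 and 0.10 in P-DF, and the VEGF receptor KDR fell from 39.3 and 39.2 to 15 and 13.3. The summed FPKM of the 4 endothelial markers was 49.9 and 49.7 against 15 and 13.4, and in P-DF nearly all of it was KDR. With all 12 libraries 12 of the endothelial genes were called lower. In the epithelial list 13 of 20 members fell and 2 rose; E-cadherin (CDH1) went from 4.88 and 3.96 FPKM to 0.07 and 0, and CLDN6, a claudin of embryonic epithelium, rose from 58.5 and 37.0 to 107 and 89.2. Leaving out NP-IWP2 replicate 1 or P-DF replicate 4 left 7 falls, and the model with all 12 libraries 8. The summed FPKM of the 3 epithelial markers was 53.5 and 49.4 against 26.2 and 21.8. The same holds for 20 neural genes listed, of which 9 were tested and 6 fell. Among them STMN2, a microtubule regulator of neurons, was at 19.1 and 20.6 FPKM in NP-IWP2 and without a count in P-DF (at least 218-fold lower). In the pluripotency and mesendoderm list 9 of 22 members were tested, of which 6 fell and 1 rose, with a fall of LIN28B, a fetal RNA-binding protein (6.77 and 7.16 to 1.72 and 1.72 FPKM). These lists fell together with the hepatocyte, epicardial and fibroblast marker sums given above, and the part of those cells in the falls was not tested.

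**Figure D4:**
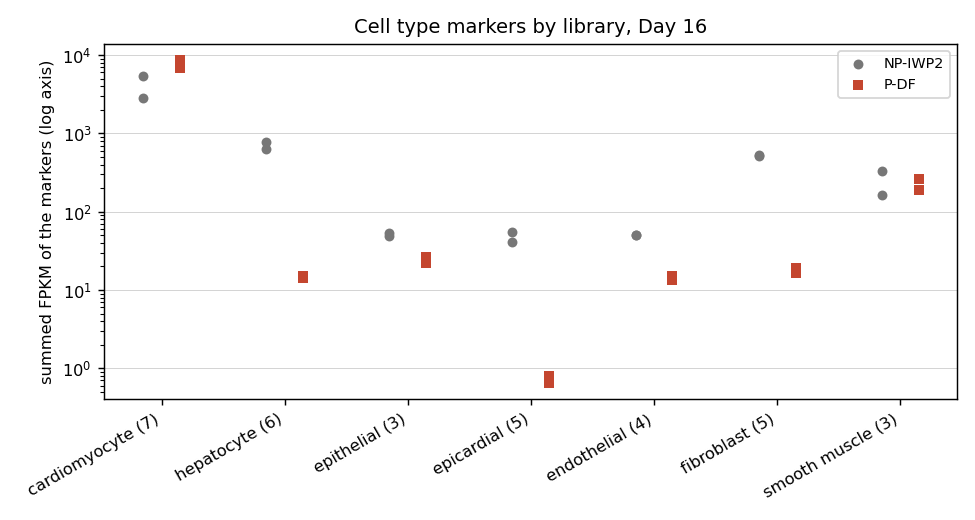
Each point is the summed FPKM of the markers of a cell type (number of markers in brackets) in a Day 16 library, on a log axis, for cell types that reach a sum of 10. The hepatocyte, epicardial and fibroblast sums are lower in both P-DF libraries (14.1 and 14.9, 0.79 and 0.65, 19.2 and 16.4), the cardiomyocyte sums are higher, and the smooth muscle sums overlap. In P-DF the hepatocyte sum is nearly all APOA1 and the endothelial sum nearly all KDR. Most of each cardiomyocyte sum is ACTC1, which was not called, and MYH7. Of the 7 cardiomyocyte markers 4 were called higher and 1 lower.

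Signaling genes differed mostly downward. WNT ligands act through Frizzled receptors and LRP co-receptors, and are held in check by secreted inhibitors and amplified by R-spondins. Of 43 WNT pathway genes, 8 rose and 19 fell. The secreted inhibitors DKK1 (28.8 and 38.2 to 0.14 and 0.05 FPKM), FRZB (96.6 and 74.9 to 4.03 and 4.15) and SFRP5 (36.5 and 56.6 to 0.66 and 0.85) fell, whereas SFRP1 was not called (-0.05). The R-spondins RSPO1, RSPO2 and RSPO3 fell, RSPO3 from 39.9 and 43.2 to 9.47 and 9.13 FPKM. The R-spondin receptor LGR4 rose from 43.4 and 34.7 to 84.2 and 87.6 FPKM and the receptor FZD2 from 24.9 and 20.0 to 46.9 and 50.7. Of the pathway's targets, LEF1 fell by 0.99 on the log2 scale and AXIN2 was not called (2.33 and 3.23 against 2.62 and 2.31 FPKM). With all 12 libraries 4 members were called higher and 11 lower.

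In the BMP, TGF-beta and activin list 5 of 44 members rose and 20 fell. LEFTY2, a secreted inhibitor of Nodal on chromosome 1 (GRCh38, 225936598 to 225941383), was at 3.55 and 0.71 FPKM in NP-IWP2 and at 35.9 and 47.1 in P-DF (log2 fold change 4.43 ± 0.47, adjusted p = 7.16e-05). Its paralog LEFTY1 was at 0.36 and 0.76 FPKM in NP-IWP2 and without a count in P-DF. LEFTY1 and LEFTY2 are close copies, so that reads shared between them are a limit of both levels. Among ligands, BMP4 fell from 23.0 and 23.5 to 1.2 and 0.59 FPKM and TGFB2 from 37.9 and 54.4 to 5.46 and 4.40, while BMP7 rose by 0.59 on the log2 scale. ID1, ID3 and ID4, inhibitors of helix-loop-helix factors and targets of BMP signaling, fell together: ID1 from 99.1 and 117 to 23.2 and 14.5 FPKM, ID3 from 104 and 139 to 22.5 and 18.5, and ID4 from 63.5 and 84.6 to 10.2 and 8.92. Without NP-IWP2 replicate 2 or either P-DF replicate, 3 members of the list were called higher, and with all 12 libraries 3 were called higher and 13 lower.

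Notch genes fell for 10 of 20 members and rose for 2, and with all 12 libraries 6 fell and none rose. The ligand JAG1 went from 24.0 and 29.0 to 7.84 and 6.75 FPKM, the receptor NOTCH1 from 4.83 and 5.69 to 1.32 and 1.18, and the target HEY1 from 25 and 34.3 to 5.07 and 5.40. The target HEY2, a ventricular repressor, was not called (adjusted p = 0.0543). Retinoid genes fell for 11 of 15 members (7 with all 12 libraries) and rose for 1, the receptor RARB (0.49 and 0.53 to 0.85 and 0.82 FPKM). CRABP2, the retinoic acid carrier, fell from 26.0 and 21.9 to 6.49 and 5.08 FPKM. Of 33 HOX genes listed 24 were not tested, and 8 of the 9 tested fell, with a median of -4.66, or -2.62 with 3 members at their bound. Members such as HOXB6 (124 and 83 counts in NP-IWP2, 0 and 0 in P-DF) passed the filter on low counts only through NP-IWP2. The share of falls and the median are therefore set in part by the filter. HOXB4 went from 9.32 and 7.74 to 1.95 and 2.38 FPKM. Among growth factor receptors and fetal growth genes 21 of 34 fell and 2 rose. IGF2, the fetal growth factor, fell from 342 and 316 to 28.2 and 31.8 FPKM (log2 fold change -3.25 ± 0.18, adjusted p = 9.81e-07) and the imprinted H19 beside it from 17.6 and 13.2 to 0.30 and 0.46. The 2 rises were the receptors INSR and IGF1R, by 1.36 and 0.67 on the log2 scale.

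Cholesterol and stress lists held more falls than rises, with many members not called. Of 32 genes of cholesterol synthesis and uptake, 13 fell and 3 rose, with SCD, a fatty acid desaturase, at 175 and 158 FPKM against 82.4 and 86.9. The falls numbered 8, 7 and 4 without NP-IWP2 replicate 1, P-DF replicate 3 and P-DF replicate 4, with all 12 libraries they numbered 6, and no rise was called without NP-IWP2 replicate 2, P-DF replicate 3 or P-DF replicate 4. In the heat shock and immediate early list 11 of 24 fell and 3 rose. DUSP1, an immediate early phosphatase, fell from 171 and 168 to 54.0 and 42.0 FPKM and NR4A2 from 4.86 and 7.48 to 0.74 and 0.54. The rises were HSPB1, HSPB8 and BAG3, which act in muscle protein quality control, with HSPB1 at 355 and 200 FPKM against 680 and 586. Without P-DF replicate 4, 6 members fell, and with all 12 libraries 7. Hypoxia genes rose for 2 of 22 members, BNIP3 and PGK1, and fell for 8, including EPAS1, the HIF-2 alpha factor that is abundant in endothelium (23.9 and 22.5 to 0.51 and 0.61 FPKM), while HIF1A and VEGFA were not called; 5 fell without P-DF replicate 3 or 4, and 4 with all 12 libraries. Of 24 genes of the unfolded protein and ATF4 response 8 fell and 1 rose, and 5, 4, 4 and 3 fell without NP-IWP2 replicate 1, NP-IWP2 replicate 2, P-DF replicate 3 and P-DF replicate 4, and 3 with all 12 libraries. Interferon response genes fell for 9 of 16 members, with IFITM3 going from 70.1 and 71.7 to 12.3 and 11.9 FPKM, and rose for 2, and 5 fell without P-DF replicate 4.

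Outside the gene lists, the largest rises included GPR22, an orphan receptor found in heart (0.24 and 0.32 to 5.86 and 6.43 FPKM, log2 fold change 4.68 ± 0.27), and CYP2J2, an epoxygenase of heart muscle (2.33 and 0.61 to 20.8 and 19.5). COL12A1 rose from 1.48 and 0.83 to 13.3 and 12.9 FPKM. FGF1, a growth factor (3.86 and 1.95 to 20.9 and 22), TXLNB (2.61 and 2.05 to 17.4 and 21.4) and CAVIN4, a muscle caveola protein (2.50 and 2.07 to 17.2 and 14.6), rose as well. Among falls, the sodium channel SCN7A was at 5.38 and 10.4 FPKM in NP-IWP2 against 0.03 and 0.03, the endopeptidase MME at 11.6 and 7.34 against 0.06 and 0.06, and the surface protein THY1 at 8.53 and 7.57 against 0.07 and 0.07.

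Whether these differences were particular to Day 16 was asked with the interaction of treatment and day over 8 libraries, 4 of them from Day 12. Of 18871 genes tested, 2380 (12.6%) had a P-DF effect that differed between the days, more positive on Day 16 for 1091 and more negative for 1289. The count was 1564 with 11 libraries in the model and 94 with all 12, so the calls for single genes below rest on the model of 8. Of the 5759 genes called on Day 16, 1666 were also called in this test. Among them, 677 were higher on Day 16 and more positive, and 903 were lower and more negative. Both tests hold the same 4 Day 16 libraries, so this overlap and its shared direction arise in part by construction. MYH6 was at 1613 and 1396 FPKM in NP-IWP2 and at 1650 and 1748 in P-DF on Day 12, so P-DF was not below NP-IWP2 on that day (interaction -2.29 ± 0.26 on the log2 scale, adjusted p = 0.000115). MYL7 was at 2956 and 2637 FPKM in NP-IWP2 and 2199 and 2283 in P-DF on Day 12, with an interaction of 1.56 ± 0.20 (adjusted p = 0.000252). HOPX, PLN, FABP3 and PRKAA2 also had more positive effects on Day 16 (4.88, 1.47, 1.33 and 1.46), and ID1, ID3, ID4 and DKK1 more negative ones (-2.08, -1.82, -2.86 and -4.34), with adjusted p-values of at most 0.00236. The interaction was not called for MYH7 (1.17, adjusted p = 0.0796), MYL2 (3.25, adjusted p = 0.377), AFP (1.05, adjusted p = 0.628) or COL3A1 (-1.18, adjusted p = 0.056). IGF2 was less reduced on Day 16 than on Day 12 (interaction 1.53, adjusted p = 9.67e-05). Over all genes tested, 5.78% were called more positive on Day 16 and 6.83% more negative. More positive effects were called for 8 of 36 sarcomere genes and none more negative. Calcium handling genes had 9 of 28 more positive and 3 more negative effects. For the nuclear respiratory chain, 7 of 74 were more positive, near the share over all genes. Fibroblast and stromal genes had 11 of 38 more negative and 4 more positive effects, and the BMP, TGF-beta and activin list 11 of 44 and 4.

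**Figure D5:**
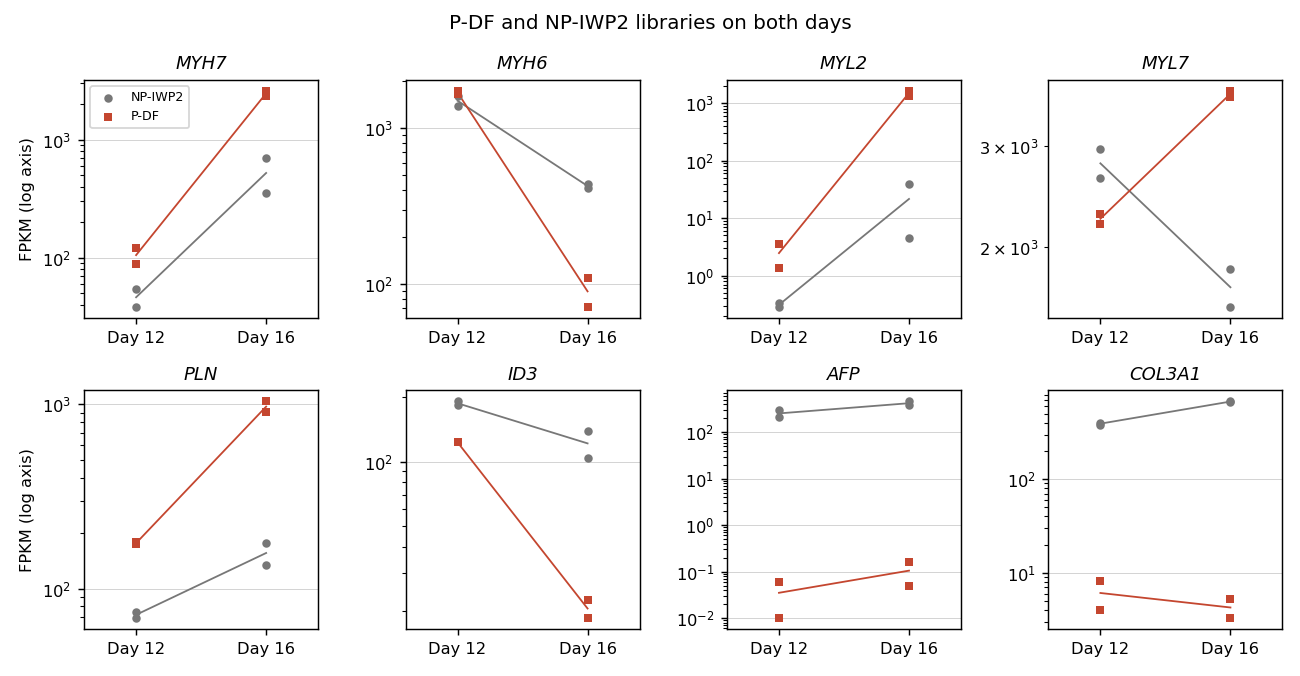
FPKM on a log axis (a different range in each panel) in the 2 NP-IWP2 (grey) and 2 P-DF (red) libraries of Day 12 and of Day 16, with lines through the group means; values under 0.01 are drawn at 0.01. The MYH6 and MYL7 lines cross between the days, whereas AFP and COL3A1 are already far lower in P-DF on Day 12. For MYH6 the P-DF mean is above NP-IWP2 on Day 12 and below it on Day 16, and for MYL7 the reverse.

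P-DF and P-IWP2 cells, which share replating and differ in IWP2, correlated at 0.976 to 0.986 across genes, and 341 genes (1.9%) were called between them on Day 16, 144 higher and 197 lower in P-DF. MYL2 was at 1147 and 1121 FPKM and MYH7 at 2637 and 2318 in P-IWP2. GJA1 was higher in P-DF than in P-IWP2 (10.7 and 9.23 FPKM, log2 difference 1.10, adjusted p = 0.00271 by edgeR). So were COL3A1 (0.94 and 1.18 FPKM, 1.95, adjusted p = 0.00586) and LUM (0.06 and 0.04 FPKM, 3.83, adjusted p = 0.003). LUM had 3 and 2 counts in the P-IWP2 libraries, at or under the floor of 3 counts, so the size of its difference is uncertain. COL1A1 (23.0 and 25.6 FPKM, -0.96), IGF2 (53.8 and 60.5, -0.98) and EDN1 (3.32 and 5.95, -1.41) were lower in P-DF. The count fell to 9 without P-DF replicate 3 and to 55 without P-DF replicate 4, and rose to 1993 without P-IWP2 replicate 5.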

How the data were processed

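RNA was sequenced from 12 libraries of H1 cells, 2 for each of 3 treatments on Day 12 and Day 16. The study's methods name Cutadapt 1.9.1, HISAT2 2.0.1, HTSeq 0.6.1, DESeq2 and the build hg38. The protocol names a SMRTbell kit, which makes long-read libraries, whereas these tools serve short reads; which reads were counted is not settled here. The authors deposited raw read counts per Ensembl gene, not normalized, and FPKM. Recomputed from the counts, the gene lengths and the library totals, the deposited FPKM were matched within 0.0051 for 100.0% of values. Of 61806 genes, 20417 have no symbol. Strand use in counting is not given in the sources used here, so antisense overlaps cannot be separated.

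Counts were tested with edgeR 4.0.16 in R 4.3.3 (TMM, filterByExpr, quasi-likelihood), with 6 Day 16 libraries in 3 groups and Benjamini-Hochberg adjustment over all genes tested. SE is the size of the log2 fold change divided by the square root of F. The interaction used the 8 NP-IWP2 and P-DF libraries. Day 12 libraries were kept out of the Day 16 model because a Day 12 P-IWP2 library (replicate 5) stood apart and widened the spread. The model of 11 libraries leaves out that library alone. The choice of libraries, the comparison, the gene lists and the tests were made with earlier results of these data known. Lists are described by counts and medians over the members tested after the filter, with no set test. Genes were named by a rule: the 12 largest rises and falls with a mean FPKM of at least 5 and at least 10 counts in the lower group, 5 genes under that count, the 6 largest gains and losses in CPM, up to 4 called members per list and the genes the study names. Other genes named were chosen after their values were seen. The table gives no gene type, so the rule's condition on protein-coding genes was not applied. A floor of 3 counts is 0.157 to 0.187 CPM here and, like every count, covers counting error only. The bound of a gene with no count is the mean CPM of the other group over the larger floor of the group's libraries.

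Promoters are RefSeq's (GRCh38.p14), of which the 250 bases before the start were used. Counts were simulated with the depths and spread of the 6 Day 16 libraries (17926 genes, 200 altered, as many up as down). The test found 51 of the 100 genes altered 2-fold, 83 of the 100 altered 4-fold, and 17 that were not altered. In the data far more genes were called (5759) and the large differences were mostly falls, so these figures may not carry over. Alternatives were DESeq2 1.42.0, limma 3.58.1 on log2(FPKM + 1) or log2(FPKM + 0.1), other scaling, no filter, other sets of libraries and each library left out. Some genes are not reported here.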

Additional observations from a re-analysis of the deposited data

Results flagged for a closer look

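Effects that differed between Day 16 and Day 12 in the test of the interaction of treatment and day were called for 2380 genes. Among the genes the study names for these cells, they included MYH6, with a log2 effect of P-DF against NP-IWP2 lower by 2.29 on Day 16 (interaction -2.29), and MYL7, with an effect higher by 1.56. No group held the 4 samples or more that a formal check for a sample far from the others would need. The Day 12 P-IWP2 library that stood apart was judged so with earlier results known, not by such a check.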

How the results depend on the processing

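The 5759 calls became 2975 with all 12 libraries in the model (1051 higher and 1924 lower), where 1 Day 12 library widened the spread, and 3061 to 4345 with 1 library left out (1131 to 1895 higher, 1930 to 2450 lower). Calls higher in P-DF, 2420 here, numbered 1161 and 1150 by limma on log2(FPKM + 1) and log2(FPKM + 0.1), and 1382 with total counts; the cause was not tested. Without a filter, by DESeq2, with RLE factors or with 4, 8 or 11 libraries, counts of calls against NP-IWP2 stayed within 1.5 times. Of 175 called named genes, none reversed, and 98 were called with 12 libraries, 169 by DESeq2 and 117 to 155 with 1 library left out. NPPB, not called at 0.38 on the log2 scale, ran from -0.43 without NP-IWP2 replicate 2 to 2.42 without NP-IWP2 replicate 1. Between P-DF and P-IWP2, the 341 calls became 618 by DESeq2, 1241 without a filter, 0 by edgeR with 12 libraries (1567 at an unadjusted p under 0.05) and 9 to 1993 with 1 library left out. The 2380 genes of the interaction became 1564 with 11 libraries, 94 with 12 and 2725 with a replicate block. The groups compared on Day 16 share no replicate number. Across days, same-numbered libraries of a treatment did not deviate together (correlations 0.089 for NP-IWP2 and -0.003 for P-DF). With only 2 numbers a treatment, this cannot settle whether equal numbers mark the same culture. Apart from the replicate block, the interaction treated the libraries as unpaired. With 2 libraries a group, 16073679 counts or more and no separate cultures stated, small differences, such as those of mitochondrial genes, are the least certain.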
